A study of Mus musculus with 5 samples.

Results

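The nuclear-encoded subunits of the mitochondrial respiratory chain were described in mouse nephron progenitor cells with and without Dis3l2, a 3′-to-5′ exoribonuclease that degrades RNAs carrying added uridines. Members were taken by name: every gene whose symbol starts with Ndufa, Ndufb, Ndufc, Ndufs, Ndufv, Uqcr, Cox4, Cox5, Cox6, Cox7, Cox8 or Atp5, together with Sdha, Sdhb, Sdhc, Sdhd and Cyc1, leaving out 7 names that mark pseudogenes. This gave 95 of the 53927 genes listed. By complex, 39 belonged to complex I, 4 to complex II, 10 to complex III, 18 to complex IV and 16 to complex V, and 8 were complex I assembly factors (Ndufaf1 to Ndufaf8), which share the prefix but are not subunits. Ndufa4 was counted with complex I by its name, although its protein is now placed in complex IV. Of the 95, 87 passed the filter of at least 0.5 CPM in at least 2 libraries. The other 8 were 5 isoforms of complex IV subunits (Cox4i2, Cox7a1, Cox7b2, Cox8b and Cox8c), Ndufa4l2, and a second entry each for Ndufs3 and Uqcrc1 that was at 0 in every library.

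The study compared total RNA from Dis3l2-/- cells (KO, 3 libraries) with Dis3l2+/+ cells (WT, 2 libraries). All were primary nephron progenitor cells from C57BL/6J embryos, isolated by a published synthetic niche protocol and passaged 1 time before collection. Nephron progenitors are the embryonic kidney cells that give rise to the nephron epithelium. The libraries are called KO1, KO2, KO3, WT1 and WT2 after the replicate numbers in the labels. Nothing in the labels says that they came from separate embryos, so the p-values speak only of how these 5 libraries vary, and some of that variation may be technical. In such bulk samples, fewer cells of a type and less RNA per cell cannot be told apart.

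The respiratory chain sits in the inner mitochondrial membrane. Complexes I and II pass electrons from NADH and succinate to ubiquinone, complex III passes them on to cytochrome c, and complex IV passes them to oxygen. Complexes I, III and IV pump protons across the membrane, and complex V, the ATP synthase, uses their return to make ATP. Most subunits are encoded in the nucleus and imported, while the mitochondrial genome encodes core subunits of every complex except complex II. Nephron progenitors are known to rely strongly on glycolysis.

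Assigned reads came to 49.25 M, 32.23 M and 19.61 M in KO1, KO2 and KO3, and to 22.34 M and 28.26 M in WT1 and WT2. A level of 3 reads therefore lay between 0.0639 and 0.141 CPM. Dis3l2 itself had 6.50, 4.93 and 4.70 CPM in KO1, KO2 and KO3, against 16.04 and 12.2 CPM in WT1 and WT2 (log2 fold change -1.24, SE 0.21; limma adjusted p = 0.954). In the authors' deposited table its log2 fold change was -1.38 (FDR 0.00855). The labels do not give the deleted part of the gene. Nephron progenitor markers summed to between 750.2 and 917 CPM in KO and to 732 and 940 CPM in WT, with 10 of 11 detected past the filter. Pax2, 1 of those markers, stayed under 0.7 CPM throughout. Most of the sum came from Itga8 and Eya1. Cited1, Crym and Gdnf varied several-fold within each genotype, Cited1 with 17.05, 4.74 and 2.73 CPM in KO and 15.2 and 1.4 CPM in WT. Renal stroma markers summed to 656, 1188 and 862 CPM in KO1, KO2 and KO3, against 632 and 1376 CPM in WT1 and WT2. Most of that was Col1a1 and Col3a1, and Foxd1 stayed at or under 0.25 CPM. The part of cell mixture in the levels below was not tested. The labels give no sex. Xist, transcribed from the inactive X chromosome of female cells, had 872, 765 and 0.52 CPM in KO1, KO2 and KO3, against 0.93 and 951 CPM in WT1 and WT2, so KO3 and WT1 stood apart from the other 3 libraries. The small nuclear RNA Rn7sk took 11.9%, 6.48% and 2.27% of the signal in KO1, KO2 and KO3, against 3.83% and 3.51% in WT1 and WT2.

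None of the 87 tested genes passed the threshold of 0.05 (limma, Benjamini-Hochberg adjusted p, every one 0.99997), and none had an unadjusted p under 0.05 in that fit. Over all 14884 tested genes 0.00672% passed, a single gene, while 1.5% were higher and 1.27% lower at an unadjusted p under 0.05. In the authors' deposited table, 0 of the 95 had an FDR under 0.05 and 3 had an unadjusted p under 0.05, namely Ndufb10 (0.0282), Uqcrq (0.0343) and Ndufb7 (0.0449), each higher in KO. That is 3.45% of the 87 tested members, where 1.81% of all 14884 tested genes were higher and 1.22% lower in KO at that p in the authors' deposited table. Over all 53927 genes of the authors' deposited table, 17 had an FDR under 0.05 (0.0315%). By sign alone, 72 of the 87 had a higher mean in KO and 15 a lower mean, or 82.8% higher where 52.9% of all genes were. The median log2 fold change was 0.18, against 0.01 over all tested genes. The smallest two-sided p that an exact permutation of 3 against 2 libraries can give is 0.1, so no single gene could pass such a test.

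On the deposited CPM scale, the direction was not shared by the 3 KO libraries. Summed over the 95 genes, the level was 6701, 5955 and 4707 CPM in KO1, KO2 and KO3, against 5269 and 4850 CPM in WT1 and WT2. KO1 and KO2 lay above both WT libraries, while KO3 lay below both. As a share of each library's summed signal, the 95 genes took 0.6385%, 0.5924% and 0.5104% in KO1, KO2 and KO3. In WT1 and WT2 they took 0.5085% and 0.4889%. By that share KO3 lay just above WT1, so the place of KO3 depended on the scale. Gene by gene, KO1 exceeded both WT libraries for 68 of 87 genes (78.2%, against 39.6% of all genes) and KO2 for 66 (75.9%, against 37.3%). KO3 did so for 12 (13.8%, against 32.9%) and lay below both for 58 (66.7%, against 33.7%). KO3 was the lowest KO library for 70 of the 87. As a median over the genes, log2(CPM + 1) differed from the gene's own mean over the 5 libraries by 0.28, 0.15 and -0.22 in KO1, KO2 and KO3, and by -0.08 and -0.14 in WT1 and WT2. Over all tested genes the same medians lay between -0.03 and 0.01.

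**Figure D1:**
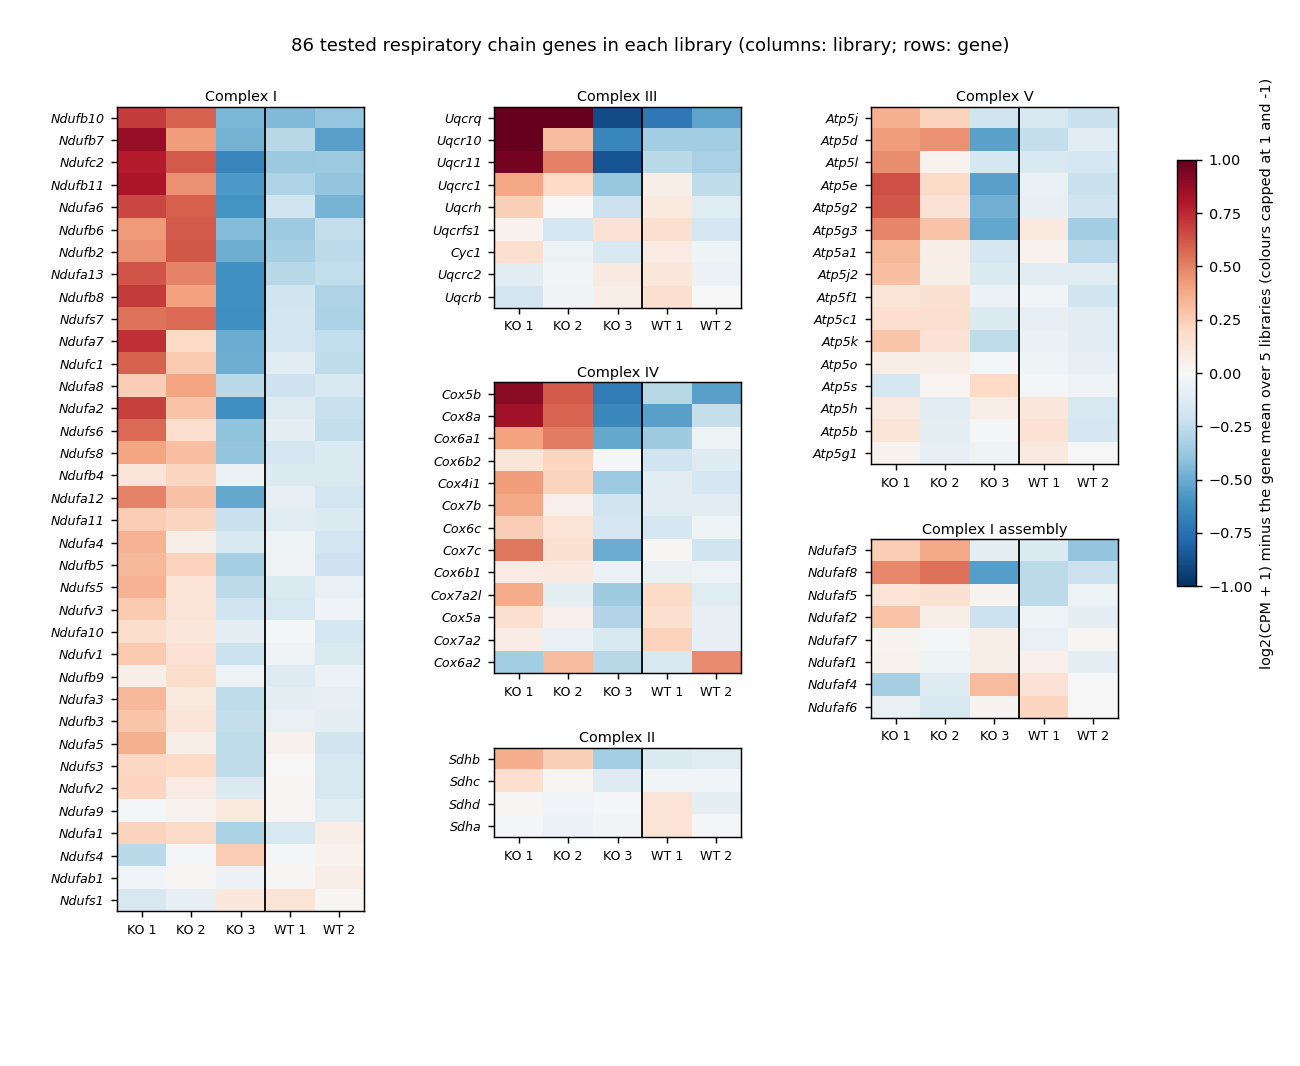
Each row is 1 of 86 tested genes, grouped by complex and ordered by fold change, and each column is a library, with the 3 KO libraries left of the 2 WT libraries. Colour is log2(CPM + 1) minus the gene's mean over the 5 libraries, capped at 1 and -1; KO1 and KO2 are mostly red, and KO3 is mostly blue, below WT1 and WT2 for 58 of all 87 tested genes.

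All 3 KO libraries exceeded both WT libraries for 6 of the 87 genes (6.90%), where 7.85% of all tested genes did. These were Ndufaf3, Ndufb4, Cox6b2, Ndufaf5, Ndufb9 and Atp5o. All 3 lay below both for 2 genes (2.30%, against 6.98% of all tested genes), Sdha and Ndufab1. The share above was close to that of all genes, and the share below was lower than that of all genes. Without KO3, 64 of 87 lay above both WT libraries (73.6%, against 23.6% of all genes) and 7 below (8.0%, against 18.1%), 37 were higher at an unadjusted limma p under 0.05 (42.5%, against 8.06% of all genes), and still none passed after Benjamini-Hochberg adjustment. The median log2 fold change was then 0.30, against 0.06 without KO1 and 0.13 without KO2. Among the libraries with low Xist, KO3 minus WT1 had a median log2 difference of -0.16 over the members and -0.02 over all tested genes. It was positive for 13 of 87 members (14.9%, against 47.4% of all tested genes). Among those with high Xist, the mean of KO1 and KO2 minus WT2 had a median of 0.32 over the members and 0.03 over all tested genes. It was positive for 75 members (86.2%, against 54.1% of all tested genes). With a term for log2(Xist + 1) in the fit, the members' median was 0.15. The part of depth or of the Rn7sk share in these differences was not tested.

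Sequence upstream of the start sites was read for the members, because genes of this family varied together between libraries and several transcription factors are known to bind their promoters. NRF1, the nuclear respiratory factor, binds GC-rich sites in front of many of them. RefSeq promoters on GRCm38.p6, covering 250 bases before and 50 after each start, were matched by symbol for 74 of the 93 distinct member symbols. On either strand, the letters of the NRF1 motif, GCGC, any base and then TGCGC, occurred in 19 of the 74 (25.7%), against 7.17% of 17491 protein-coding genes. The ETS letters CCGGAAG, read by GABP, occurred in 24.3% (against 12.9%) and the YY1 letters AAGATGGCG in 10.8% (against 2.14%). CCAAT occurred in 44.6% (against 42.3%), the GC box GGGCGG in 44.6% (against 49.2%) and TATAAA in 9.46% (against 14.8%). Motifs were counted independently, whether or not they overlapped another. The 17491 genes were taken whether or not they were detected in these cells, while most members were. A comparison with detected genes alone was not made. The median log2 fold change was 0.18 for the 19 genes with the NRF1 letters and 0.20 for the 52 tested genes without them; the difference was not tested. For each complex where a match lay free of annotated exons, the most abundant gene is shown by 120 bases upstream of its start, 5′ to 3′ on the gene's strand, with the NRF1 letters in capitals. They are Ndufb4 of complex I (chr16:37654495-37654614, minus strand), the assembly factor Ndufaf4 (chr4:24897915-24898034, plus strand) and Atp5h of complex V (chr11:115419996-115420115, minus strand). A letter match describes the sequence and is not evidence of binding.
Ndufb4: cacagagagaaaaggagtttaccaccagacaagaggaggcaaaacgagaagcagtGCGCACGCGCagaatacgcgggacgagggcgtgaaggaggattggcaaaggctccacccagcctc
Ndufaf4: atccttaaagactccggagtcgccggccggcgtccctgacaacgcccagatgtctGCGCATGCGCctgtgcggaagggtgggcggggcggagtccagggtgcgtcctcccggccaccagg
Atp5h: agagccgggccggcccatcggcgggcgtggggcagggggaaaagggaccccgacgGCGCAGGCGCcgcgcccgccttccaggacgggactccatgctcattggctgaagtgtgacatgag

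Complex I, the NADH dehydrogenase, was the largest group, with 37 genes tested. Its summed level was 2218, 1992 and 1423 CPM in KO1, KO2 and KO3, against 1583 and 1511 CPM in WT1 and WT2. The KO mean was 1877 ± 410 CPM (SD, n = 3) and the WT mean 1547 ± 51.1 CPM (SD, n = 2), a difference smaller than the SD of the KO libraries. By sign, 34 of its 37 genes were higher in KO and 3 lower, with a median log2 fold change of 0.21, which was 0.07 without KO1 and 0.36 without KO3. KO3 was the lowest KO library for 34 of the 37.

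The 7 tested core subunits form the matrix arm, which holds the flavin and the iron-sulfur centres. Ndufv1, which binds NADH and the flavin, had 53.3, 49.1 and 38.00 CPM in KO1, KO2 and KO3, against 42.9 and 39.9 CPM in WT1 and WT2. Its iron-sulfur neighbour Ndufv2 had 73.03, 66.4 and 56.5 CPM in KO and 63.1 and 55.9 CPM in WT. For Ndufs1, the largest of the iron-sulfur subunits, the order was turned round, with 66.3, 70.1 and 79.9 CPM in KO against 81.9 and 74.8 CPM in WT (log2 fold change -0.12, SE 0.14). KO3 was here the highest KO library, and KO and WT overlapped. Ndufs3, a subunit of the module that leads to ubiquinone, had 16.4, 16.3 and 11.7 CPM in KO and 14.1 and 12.5 CPM in WT. Ndufs7, which holds the last iron-sulfur cluster before ubiquinone, had 23.6, 24.1 and 10.02 CPM in KO against 13.9 and 12.6 CPM in WT (log2 fold change 0.41, SE 0.36). Ndufs8 had 48.97, 45.9 and 27.9 CPM in KO against 32.9 and 33.5 CPM in WT. For Ndufs7 and Ndufs8, KO1 and KO2 stood above both WT libraries and KO3 below both. The median over the 7 was 0.13.

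The 30 accessory subunits, which surround the core and are needed for its assembly and stability, had a median log2 fold change of 0.23, and 28 were higher in KO by sign. Ndufb10, a membrane-arm subunit (chr17:24722060-24724478, minus strand, GRCm38), had 53.5, 49.4 and 23.4 CPM in KO1, KO2 and KO3, against 23.6 and 24.6 CPM in WT1 and WT2. KO1 and KO2 were more than 2-fold above the WT libraries and KO3 lay just under both. The log2 fold change was 0.69 (SE 0.34, 95% interval -0.11 to 1.5). Ndufb7, another membrane-arm subunit, had 47.7, 34.6 and 18.1 CPM in KO against 20.96 and 17.3 CPM in WT (log2 fold change 0.68, SE 0.37). Its KO3 value lay between the WT libraries. Ndufb4 had 48.4, 51.2 and 42.3 CPM in KO against 39.9 and 39.8 CPM in WT (log2 fold change 0.24, SE 0.14), and here all KO libraries lay above both WT libraries, KO3 nearest to them. Ndufb9 did the same with 45.4, 49.2 and 41.9 CPM in KO against 39.7 and 41.6 CPM in WT, where KO3 was nearly level with WT2. Of its exon bases 19.5% overlap another annotated gene on the same strand, so its counts are uncertain. Ndufc2, Ndufb11 and Ndufa6 also had KO1 and KO2 above both WT libraries and KO3 below both. Ndufc2 had 69.3, 61.2 and 24.8 CPM in KO against 30.5 and 30.8 CPM in WT, Ndufb11 had 56.5, 43.7 and 20.9 CPM in KO against 25.3 and 23.8 CPM in WT, and Ndufa6 had 36.9, 35.02 and 14.8 CPM in KO against 19.8 and 16.2 CPM in WT. Whether the authors' counting used strand is not stated in the labels, and 12.9% of the exon bases of Ndufb11 overlap Rbm10 on the opposite strand.

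The remaining accessory subunits ran between these and the flat genes. Ndufa13, also known as the cell death regulator Grim19, had 104, 95.6 and 43.8 CPM in KO against 55.4 and 56.6 CPM in WT, with 30.0% of its exon bases shared with Tssk6 on the opposite strand. Ndufa4 had 234, 192 and 164 CPM in KO against 177 and 160.5 CPM in WT, with only KO1 and KO2 above both WT libraries. Ndufab1, the mitochondrial acyl carrier protein, was close to level with 12.9, 13.3 and 12.7 CPM in KO against 13.4 and 13.9 CPM in WT. Its KO libraries all lay below both WT libraries, by a narrow margin between KO2 and WT1. Ndufs4, a phosphorylated subunit of the matrix arm, had 46.3, 55.6 and 67.1 CPM in KO against 55.7 and 57.4 CPM in WT, with KO3 highest. The hypoxia-induced paralog Ndufa4l2 stayed between 0 and 0.09 CPM in KO and between 0 and 0.07 CPM in WT, at or under the level of 3 reads in each library.

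**Figure D2:**
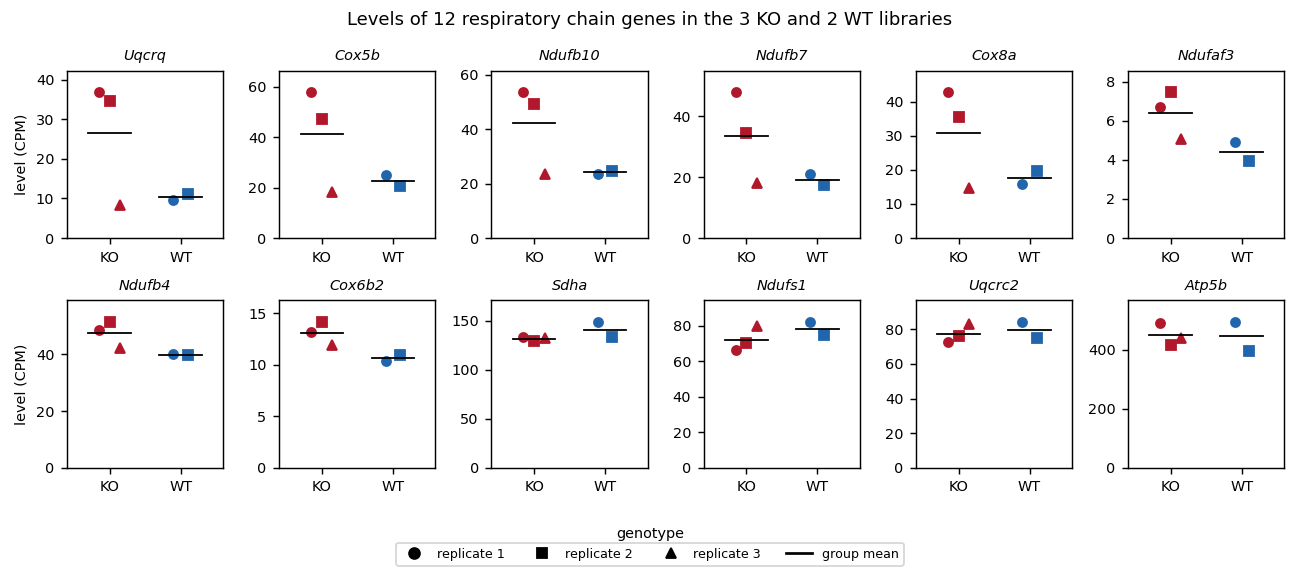
Level in CPM (vertical axis from 0) of 12 genes in the 3 KO libraries (red) and the 2 WT libraries (blue), with the marker shape for the replicate number and a line for the group mean. Upper row: KO3 (triangle) sits with the WT libraries for Uqcrq, Cox5b, Ndufb10, Ndufb7 and Cox8a, while KO1 and KO2 sit above; for Ndufaf3 all KO libraries lie above both WT libraries. Lower row: Ndufb4 and Cox6b2 do so too, and Sdha, Ndufs1, Uqcrc2 and Atp5b are nearly level.

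The 8 complex I assembly factors differed little between libraries, with summed levels of 94.9, 93.0 and 92.2 CPM in KO1, KO2 and KO3, against 89.8 and 85.5 CPM in WT1 and WT2. Their median log2 fold change was 0.08, with 6 higher and 2 lower by sign. Ndufaf3, which acts early in assembly together with Ndufaf4, had the smallest unadjusted p of all members. It had 6.71, 7.45 and 5.08 CPM in KO1, KO2 and KO3, against 4.92 and 3.93 CPM in WT1 and WT2. KO and WT did not overlap, KO3 exceeding WT1 by a narrow margin, and the log2 fold change was 0.44 (SE 0.21; limma adjusted p = 0.99997). The gene lies at chr9:108565537-108567434 on the minus strand, and 2.6% of its exon bases overlap Impdh2. Ndufaf5, an arginine hydroxylase acting on Ndufs7, had 7.14, 7.24 and 6.54 CPM in KO against 5.19 and 6.14 CPM in WT and also showed no overlap. Ndufaf4 went the other way in KO1 and KO2, with 16.1, 18.8 and 25.96 CPM in KO against 22.9 and 20.7 CPM in WT, so KO3 exceeded both WT libraries and KO1 and KO2 lay below them. Ndufaf8, which supports Ndufaf5, had 4.31, 4.59 and 1.6 CPM in KO against 2.18 and 2.28 CPM in WT, with KO3 again below both WT libraries. Ndufaf6 had 2.52, 2.31 and 2.77 CPM in KO and 3.29 and 2.7 CPM in WT. Ndufaf2 had 27.9, 23.9 and 19.5 CPM in KO and 22.1 and 21.2 CPM in WT, but 65.6% of its exon bases overlap a non-coding gene on the opposite strand. Of Ndufaf1 and Ndufaf7, every library lay between 13.4 and 15.9 CPM.

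Complex II, succinate dehydrogenase, also works in the TCA cycle and has no subunit from the mitochondrial genome. Its summed level overlapped between genotypes, at 334, 316 and 295 CPM in KO1, KO2 and KO3, against 329 and 303 CPM in WT1 and WT2. The median log2 fold change over its 4 genes was 0.01. Sdha, the flavoprotein that oxidises succinate, had 133, 129.6 and 133 CPM in KO against 149 and 133 CPM in WT (log2 fold change -0.09, SE 0.12). All KO libraries lay below both WT libraries, but the nearest libraries were 133.29 CPM in KO1 and 133.30 CPM in WT2. The iron-sulfur subunit Sdhb had 53.98, 49.2 and 32.6 CPM in KO and 37.8 and 38.2 CPM in WT, and the membrane anchor Sdhc had 79.7, 72.01 and 64.6 CPM in KO and 69.6 and 69.4 CPM in WT. In both, KO1 and KO2 lay above both WT libraries and KO3 below both. The other membrane anchor, Sdhd, overlapped, as it had 67.04, 64.9 and 65.4 CPM in KO and 72.7 and 62.2 CPM in WT.

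In complex III, the cytochrome bc1 complex, the median log2 fold change over the 9 tested genes was 0.02, with 6 higher and 3 lower by sign. Over 4 core subunits it was -0.01 and over 5 small subunits 0.50; the difference between the roles was not tested. Uqcrc1, a large matrix-facing scaffold, had 54.2, 47.5 and 31.5 CPM in KO against 42.9 and 34.4 CPM in WT, with KO1 and KO2 above both WT libraries and KO3 below both. Its partner Uqcrc2 had 72.6, 76.3 and 83.05 CPM in KO against 83.98 and 74.8 CPM in WT, with KO1 and KO3 in the opposite order. The Rieske iron-sulfur protein Uqcrfs1 had 38.1, 32.8 and 41.2 CPM in KO against 41.8 and 33.00 CPM in WT. Cytochrome c1, encoded by Cyc1, had 33.9, 28.9 and 26.9 CPM in KO against 31.7 and 29.00 CPM in WT. In these 4 core genes KO and WT overlapped, with log2 fold changes between -0.04 and 0.17. Of the exon bases of Uqcrc2, 19.7% are shared with Pdzd9 on the opposite strand.

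Among the small subunits of complex III, the level in KO1 was 4.399 times that in KO3 for Uqcrq, 3.61 times for Uqcr11 and 3.29 times for Uqcr10. Uqcrq, a small membrane subunit (chr11:53427922-53430831, minus strand), had 36.8, 34.6 and 8.37 CPM in KO1, KO2 and KO3, against 9.6 and 11.1 CPM in WT1 and WT2. KO1 and KO2 stood more than 3-fold above both WT libraries and KO3 below both. Its log2 fold change of 1.04 was the highest among the 87 (SE 0.58, 95% interval -0.34 to 2.42). Without KO3 it was 1.70 (limma adjusted p = 0.0664). Uqcr10 had 126, 75.3 and 38.2 CPM in KO against 47.3 and 47.3 CPM in WT, and Uqcr11 had 101, 73.5 and 27.98 CPM in KO against 42.6 and 41.00 CPM in WT, again with KO3 below both WT libraries. The remaining small subunits did not follow these 3. Uqcrb had 42.1, 47.2 and 50.6 CPM in KO against 54.4 and 48.2 CPM in WT (log2 fold change -0.14), with KO1 lowest of all. Uqcrh, the acidic hinge protein that docks cytochrome c1, had 143, 121 and 104 CPM in KO against 129.5 and 111 CPM in WT (log2 fold change 0.02), with KO2 between the WT libraries.

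In complex IV, cytochrome c oxidase, the catalytic subunits come from the mitochondrial genome and the nuclear ones surround them. The summed level was 1177, 1062 and 799 CPM in KO1, KO2 and KO3, against 893 and 881 CPM in WT1 and WT2. Over 13 tested genes the median log2 fold change was 0.18, with 9 higher and 4 lower by sign. It was 0.06 without KO1 and 0.33 without KO3. Cox5b, a matrix-side zinc-binding subunit (chr1:36691449-36693681, plus strand), had 57.8, 47.2 and 18.4 CPM in KO against 24.9 and 20.6 CPM in WT (log2 fold change 0.68, SE 0.44). Its partner Cox5a had 26.4, 24.4 and 18.9 CPM in KO against 26.4 and 22.2 CPM in WT. Cox5b in KO1 and KO2 was well above both WT libraries, while Cox5a overlapped. Cox8a, a small membrane subunit, had 42.7, 35.5 and 14.6 CPM in KO against 15.7 and 19.7 CPM in WT (log2 fold change 0.65, SE 0.42). KO3 was the lowest library for both Cox5b and Cox8a. Cox6c had 268, 247 and 200.1 CPM in KO against 200.1 and 219 CPM in WT, with KO3 just under WT1.

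The isoform pairs of complex IV gave the same choice of isoform in every library. Cox4i1, the ubiquitous form of subunit 4, had 249, 217 and 144 CPM in KO against 173 and 165 CPM in WT. Its lung and hypoxia isoform Cox4i2 had 0.17, 0.16 and 0.28 CPM in KO against 0 and 0.25 CPM in WT. For subunit 6a, the liver-type Cox6a1 had 58.8, 63.7 and 30.9 CPM in KO against 34.5 and 42.9 CPM in WT, and the heart and muscle isoform Cox6a2 had 0, 0.59 and 0.05 CPM in KO against 0.14 and 0.77 CPM in WT, high in KO2 and WT2 and near the floor elsewhere. Cox6a2 passed the filter through those libraries. Striated muscle markers summed to 8.46, 14.4 and 14.7 CPM in KO1, KO2 and KO3, against 10.6 and 17.5 CPM in WT1 and WT2, with 4 of 7 past the filter and Ckm at 0 to 0.05 CPM; their part in Cox6a2 was not tested. Cox7a2 had 70.1, 63.7 and 59.8 CPM in KO against 78.4 and 62.9 CPM in WT. The related Cox7a2l, known as a factor for supercomplexes of complexes III and IV, had 73.6, 53.1 and 43.9 CPM in KO against 64.9 and 51.96 CPM in WT. The muscle isoform Cox7a1 had 0.32, 0.13 and 0.09 CPM in KO against 0.14 and 0.14 CPM in WT. The other muscle isoform, Cox8b, and Cox7b2 stayed at or under 0.04 CPM, and Cox8c was at 0 in all 5 libraries.

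A testis isoform was detected beside its ubiquitous partner. Cox6b2, known from sperm mitochondria, had 13.2, 14.1 and 11.9 CPM in KO1, KO2 and KO3, against 10.3 and 10.9 CPM in WT1 and WT2. All KO libraries lay above both WT libraries (log2 fold change 0.27, SE 0.16). The ubiquitous Cox6b1 had 203, 204 and 183 CPM in KO against 183 and 185 CPM in WT. Male germ cell markers summed to 4.07, 3.05 and 4.65 CPM in KO and to 3.90 and 4.81 CPM in WT, with 1 of 4 past the filter and the sperm chromatin genes Prm1 and Tnp1 at 0 in every library.

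**Figure D3:**
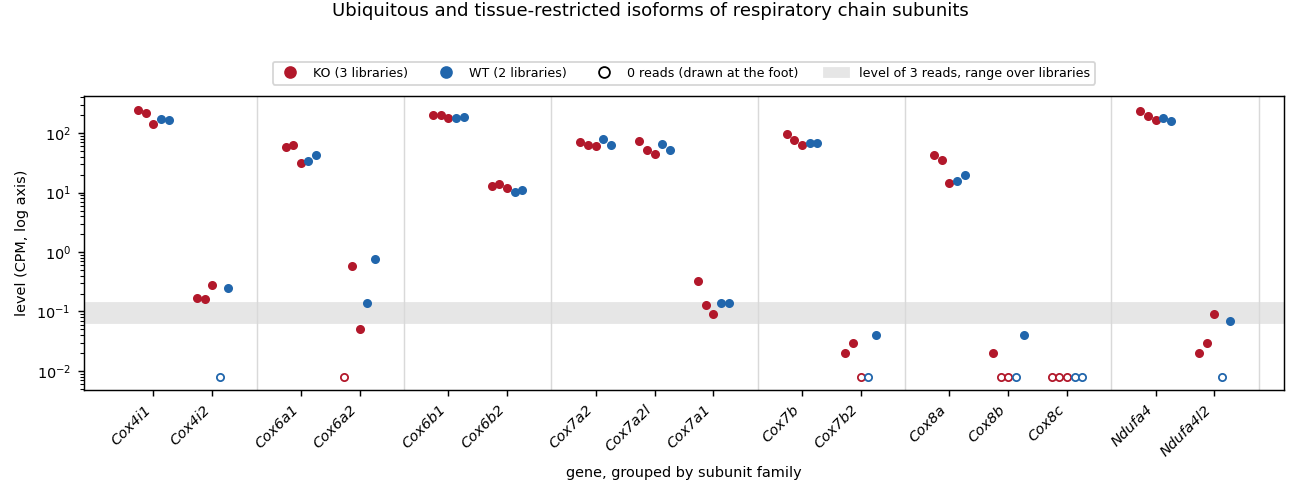
Level in CPM on a log axis of 16 subunit isoforms, 1 point per library, KO (red) left of WT (blue) for each gene; open circles at the foot are libraries with 0 reads, and the grey band is the level of 3 reads. The ubiquitous isoforms lie above 14 CPM, Cox6b2 lies between 10.3 and 14.1 CPM, and the other tissue-restricted isoforms lie under 1 CPM.

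Complex V, the ATP synthase, had summed levels of 2230, 1956 and 1685 CPM in KO1, KO2 and KO3, against 1891 and 1640 CPM in WT1 and WT2. KO1 and KO2 exceeded both WT libraries, and KO3 lay between them. By sign, 15 of its 16 genes were higher in KO, with a median log2 fold change of 0.19, which was 0.07 without KO1 and 0.30 without KO3. The catalytic head was represented by Atp5a1 (alpha), Atp5b (beta) and Atp5c1 (gamma). Atp5a1 had 492, 409 and 348 CPM in KO against 401 and 326 CPM in WT, and Atp5b had 488, 417 and 441 CPM in KO against 492 and 396 CPM in WT. Both overlapped between genotypes, and Atp5b had a log2 fold change of 0.02 (SE 0.16). Atp5c1 had 147, 147 and 119 CPM in KO against 124 and 122 CPM in WT. Of the small head subunits, Atp5d had 63.1, 64.5 and 31.98 CPM in KO against 39.6 and 43.6 CPM in WT, and Atp5e had 97.05, 70.3 and 41.99 CPM in KO against 58.7 and 52.5 CPM in WT. In both, KO3 was the lowest library.

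The peripheral stalk genes were Atp5f1, Atp5h, Atp5j and Atp5o. Atp5j, which encodes coupling factor 6, had the smallest p of the complex, with 71.7, 65.4 and 48.5 CPM in KO against 49.7 and 47.7 CPM in WT (log2 fold change 0.32, SE 0.18). KO3 lay between the WT libraries, and 12.7% of the exon bases are shared with Gabpa on the opposite strand. Atp5f1 had 92.1, 93.6 and 80.7 CPM in KO against 82.5 and 73.3 CPM in WT. Atp5o, the oligomycin sensitivity protein, had 128, 127 and 121 CPM in KO against 118 and 115 CPM in WT, without overlap. Its exons overlap antisense genes over 17.5% and 18.1% of their bases. On the same strand, 12.3% overlap another annotated gene of the same name, so its counts are uncertain. The c-ring genes Atp5g1, Atp5g2 and Atp5g3 encode the same mature subunit. Atp5g1 was level with 34.2, 31.6 and 32.3 CPM in KO and 35.5 and 33.4 CPM in WT, whereas Atp5g3 had 178, 154 and 87.6 CPM in KO against 135 and 98.8 CPM in WT. Atp5g2 had 28.00, 19.8 and 12.5 CPM in KO against 16.7 and 15.3 CPM in WT. KO3 was the lowest library for Atp5g2 and Atp5g3. The membrane subunit Atp5l had 40.2, 29.6 and 25.3 CPM in KO against 25.8 and 25.4 CPM in WT.

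**Figure D4:**
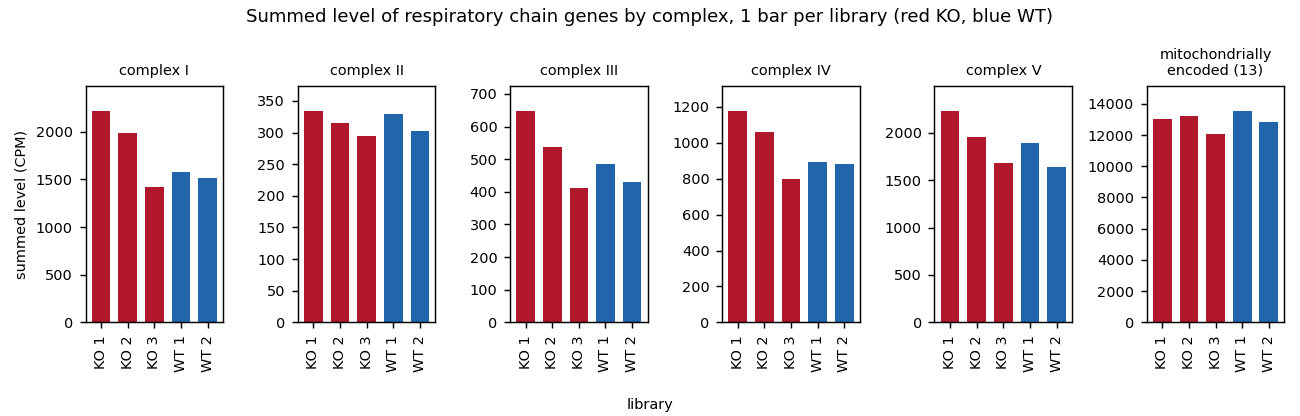
Summed level in CPM (vertical axes from 0, each with its own scale) of the genes of complexes I to V and of the 13 protein genes of the mitochondrial genome, 1 bar per library, KO (red) left of WT (blue). KO1 and KO2 exceed both WT bars for complexes I, III, IV and V, KO3 lies under both for complexes I, III and IV, and complex II and the mitochondrially encoded genes are nearly level.

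The 13 protein genes of the mitochondrial genome, whose products join the same complexes, summed to 13045, 13209 and 12035 CPM in KO1, KO2 and KO3, against 13536 and 12822 CPM in WT1 and WT2. None passed the threshold in either direction, and their median log2 fold change was -0.04. Here KO1 and KO2 lay between the WT libraries and KO3 below both. Of the 13, mt-Nd3, a complex I core subunit, had 441, 259 and 222 CPM in KO against 216 and 215 CPM in WT, with all KO libraries above both WT libraries, the only 1 of the 13 to do so (7.69%, against 7.85% of all tested genes). All KO libraries lay below both WT libraries for 2 of the 13 (15.4%, against 6.98%), both complex I core subunits. mt-Nd5 had 958, 1000.4 and 904 CPM in KO against 1022 and 1039.5 CPM in WT, and mt-Nd2 had 1628, 1647 and 1499 CPM in KO against 1742 and 1651 CPM in WT, where KO2 was nearly level with WT2. mt-Atp8 of complex V had 1.9, 3.06 and 1.83 CPM in KO against 2.27 and 3.51 CPM in WT. The mitochondrial rRNAs took 31.5%, 32.7% and 32.9% of the signal in KO1, KO2 and KO3, against 40.7% and 38.9% in WT1 and WT2, and scaling to the sum without mitochondrially encoded genes and Rn7sk gave a members' median of 0.11, with 64 of 87 higher, beside -0.05 for all genes.

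In the same fit no other gene of the pathway lists passed the threshold. Of 40 tested assembly factors outside the name rule, 3 lay wholly above WT and 3 wholly below it in KO (7.5% each way, against 7.85% and 6.98% of all tested genes), and the median was 0.05. Cox17, the copper chaperone of complex IV, had 26.6, 27.6 and 15.7 CPM in KO against 14.8 and 16.1 CPM in WT (log2 fold change 0.52), with KO3 between the WT libraries. Coa3 had 27.5, 29.6 and 24.4 CPM in KO against 21.6 and 22.8 CPM in WT, with no overlap. Over 13 TCA cycle enzymes the median was 0.03; the succinyl-CoA ligase subunit Sucla2 had 47.4, 51.5 and 51.96 CPM in KO against 48.4 and 39.9 CPM in WT, and its partner Suclg1 had 44.7, 48.7 and 42.7 CPM in KO against 40.95 and 40.97 CPM in WT. Over 14 regulators of mitochondrial biogenesis it was 0.01. Nrf1, the gene of the factor named above, had 33.1, 24.8 and 22.2 CPM in KO against 28.5 and 22.6 CPM in WT. The coactivator Ppargc1a stayed low, at 0.60, 0.72 and 0.38 CPM in KO against 0.88 and 0.74 CPM in WT, and Yy1 had 49.3, 44.3 and 52.5 CPM in KO against 60.6 and 51.5 CPM in WT. Among 15 genes of cytochrome c, coenzyme Q synthesis, ADP/ATP exchange and phosphate transport (Slc25a3), the median was 0.03. Of the 15, 2 lay wholly above WT and 2 wholly below it in KO (13.3% each way, against 7.85% and 6.98% of all tested genes). The ADP/ATP carriers were among these and pointed opposite ways. Slc25a4, the heart and muscle carrier, had 287, 324 and 227 CPM in KO against 212 and 226 CPM in WT (log2 fold change 0.33). Its KO3 value was nearly level with WT2. Slc25a5, the carrier of growing cells, had 93.1, 85.8 and 81.5 CPM in KO against 104 and 108 CPM in WT (log2 fold change -0.29). Their difference was not tested. Among markers of other cell types, those of adipocytes summed to 19.3, 47.2 and 65.6 CPM in KO1, KO2 and KO3, against 118 and 236 CPM in WT1 and WT2, with all 4 past the filter; their part in the levels above was not tested.

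Levels of different genes were compared per kilobase of mRNA, using 1 annotated transcript for each gene. The median level per kilobase was 104 CPM for complex V, 53.4 for complex IV, 41.7 for complex I, 41.9 for complex II and 41.2 for complex III, and 5.64 for the assembly factors, all as means over the 5 libraries. The highest were Cox6c (451 CPM per kilobase), Atp5k (330.3), Cox6b1 (310.1) and Ndufa4 (304), then Uqcrh (223) among complex III genes and Sdhd (54.0) among complex II genes. Ndufab1 (3.8) and Uqcrq (13.2) were the lowest of complexes I and III, but for genes with long annotated 3′ ends, such as Ndufab1, this scale depends on the transcript chosen. Atp5s, a factor B gene that is not a structural subunit, had 4.24, and Sdhc 22.4.

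Length and GC content of the mRNA, which the name rule did not use, went with the split between libraries. The members have short mRNAs, with a median of 875 bases (371 to 4715), against 3067 bases for the 12339 tested protein-coding genes. Of the 87, 49 (56.3%) were under 1000 bases, against 703 (5.7%) of the protein-coding genes. Under 1000 bases the median log2 fold change was 0.24 for members and 0.12 for all protein-coding genes of that length; at 1000 bases or more it was 0.11 for members and 0.01 for all. In KO1, KO2 and KO3 the short protein-coding genes as a class differed from their gene means by 0.18, 0.14 and -0.19 as medians, against -0.08 and -0.10 in WT1 and WT2. With the trend on length alone removed from each library, the members' median log2 fold change was 0.14, with 66 of 87 higher. The length in that correction was that of all annotated exons of a gene joined, not the mRNA length used above. Median GC content of the mRNA was 50.6% for the members and 50.2% for the protein-coding genes. Across the 87 members, Spearman's rho between GC content and a library's deviation was 0.45, 0.51 and -0.48 in KO1, KO2 and KO3, and -0.43 and -0.39 in WT1 and WT2. Across all 12339 genes it was 0.43, 0.46 and -0.59 in KO, and -0.34 and -0.08 in WT. These are correlations across genes that share libraries, depth and base composition, and genes are not independent replicates. With the trends on GC content and length removed from each library, an alternative chosen after seeing the data, the members' median log2 fold change was 0.07, with 62 of 87 higher. The members' deviations were then 0.13, 0.05 and -0.12 in KO1, KO2 and KO3, and -0.05 and -0.06 in WT1 and WT2, in the same order as before and smaller.

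**Figure D5:**
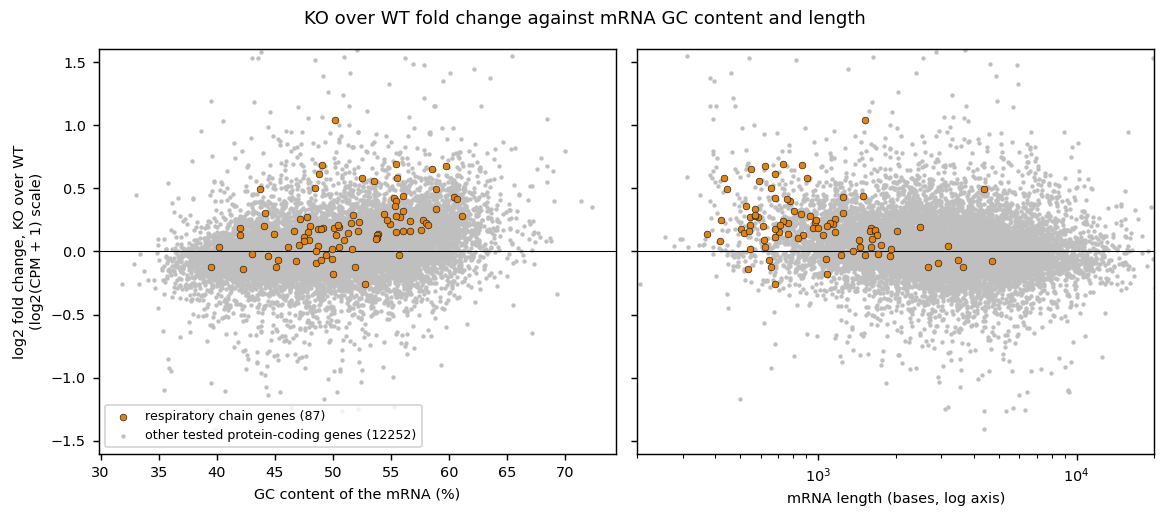
Log2 fold change of KO over WT (vertical axis, log2(CPM + 1) scale, cut at 1.6, which leaves out 7 genes) against GC content of the mRNA (left) and mRNA length on a log axis (right), for 87 respiratory chain genes (orange) and 12252 other tested protein-coding genes (grey). Of the members, 72 lie above 0, and 49 lie at the short end of the length axis, under 1000 bases.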

How the data were processed

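RNA-seq was analysed from 5 libraries, 3 KO and 2 WT. The authors deposited a signal per gene and library, the CPM of an effective library size, together with the score of a likelihood ratio test, its p-value and FDR, a mean log2 CPM and a log2 fold change, per the file headers. Alignment and counting tools named in the submitters' processing notes are HISAT2 2.1.0 and featureCounts, with edgeR 3.20.1 and build mm10. The annotation used, and how strand and multiply matching reads were handled, are not given in the sources used. Reads from near-identical copies, such as processed pseudogenes, could therefore be split. Depth was read from the steps of low values, which 1 read sets; values rounded to 2 decimals were not turned into counts. Differences were therefore tested with limma 3.58.1 (R 4.3.3), with its trend option on log2(CPM + 1), genotype as the single term and Benjamini-Hochberg adjustment over all 14884 genes that reached 0.5 CPM in 2 or more libraries. Fold changes are on that log2 scale, which understates changes of low genes. The fit was also run on simulated data, which does not show how well it detects changes in these 5 libraries. Lengths, GC content, coordinates and exon overlaps came from GENCODE M21 (GRCm38). Lengths and GC content of the mRNA are for 1 transcript per gene chosen by annotation rank, then length. The correction for length alone used all annotated exons of a gene joined, and the correction for GC content and length used that transcript. Core subunits, isoform groups and, per complex, the 3 genes with the smallest p and the highest and lowest per kilobase were named; further genes were named after their values were seen. An item that this rule covers is not reported here. The members, lists and rules were chosen with earlier results of these data known. Alternatives changed the pseudocount, filter, scaling, model terms, length or GC correction, and left out each library. The 3-read floor covers counting error only; the intervals on fold changes come from the spread between libraries.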

Additional observations from a re-analysis of the deposited data

How the results depend on the processing

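No member passed the threshold under any alternative except the replicate block. Genes past the threshold numbered 1 as reported and 0 with a pseudocount of 5, no filter, median-of-ratios scaling, a term for Xist, the length trend removed, GC content and length trends removed, or limma without its trend option, and 0 to 8 when 1 library was left out. With the replicate number as a replicate block, 18 members (20.7%, against 2.62% of all genes) and 390 genes passed, and the members' median was 0.30. KO3 has no WT partner and adds nothing to that fit, which has the median of the fit without KO3. Deviations from the genotype mean correlated at 0.41 for KO1 with WT1 and 0.54 for KO2 with WT2. With 2 WT libraries, WT1 and WT2 mirror each other, giving -0.41 for KO1 with WT2 and -0.54 for KO2 with WT1. KO3 correlated at -0.039 with WT1 and 0.039 with WT2. These values are therefore not independent, and the labels do not say what a number marks. Whether libraries of 1 number share more than that number was not tested. The members' median ran from 0.06 to 0.30 when 1 library was left out, and was 0.19 for structural subunits alone. Members above both WT libraries numbered 3 with the sum without mitochondrially encoded genes and Rn7sk (3.45%, against 4.61% of all genes). They numbered 64 without KO3 (73.6%, against 23.6%), 8 without KO1 (9.20%, against 16.4%) and 7 without KO2 (8.14%, against 11.0%). With WT1 or WT2 left out, 21.8% and 9.30% of members lay above the remaining WT library, against 21.5% and 20.1% of all genes. Those below numbered 5 with that sum (5.75%, against 11.8% of all genes), 1 with the length trend removed (against 8.55% of all genes), 4 with GC content and length trends removed (4.60%, against 9.99%), and 2 to 13 with 1 library left out, where 9.56% to 21.6% of all genes did so. Medians of assembly factors outside the rule and of TCA cycle enzymes were -0.0158 and -0.0438 with that sum, and ran from -0.0029 to 0.116 and from -0.0235 to 0.12 with 1 library left out. Complexes II and III changed sign with libraries left out, from -0.05 to 0.06 and from -0.09 to 0.17, while complexes I, IV and V ran from 0.07 to 0.36, from 0.06 to 0.33 and from 0.07 to 0.30. The cause was not tested. With 2 or 3 libraries a group, small differences could not be resolved, and larger ones could also miss the threshold. Dis3l2 itself, with a log2 fold change of -1.24 and no overlap between genotypes, had a limma adjusted p of 0.954. A member that did not pass is therefore not shown to be unchanged.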
